A study of Homo sapiens with 24 samples.

Results

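The VAL-only early and sustained closed regions were the stretches of chromatin that lost accessibility in VAL cells after both 3 h and 8 h of CDK9 inhibition and were called in neither direction in OCI-LY3 cells. They were selected on measured values, namely the DESeq2 calls behind the deposited lists: a region was a member when its chromosome, start and end stood in both lists of decreased regions for VAL and in none of the 4 lists for OCI-LY3. There were 813 members among 26369 regions listed in any comparison. Their decrease in VAL and their absence from the OCI-LY3 lists are therefore a description, and no test was made on either.

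VAL and OCI-LY3 are human diffuse large B-cell lymphoma (DLBCL) cell lines. Both were treated with 30 nM AZD4573, a selective inhibitor of CDK9, and profiled by ATAC-seq, which reads open chromatin from the sites where a transposase can insert adapters. The 24 libraries gave 4 for each line at 0, 3 and 8 h. By the labels, 2 of each 4 were standard ATAC-seq libraries from 50000 cells and 2 were Fast-ATAC libraries from 5000 cells, whereas the protocol text describes Fast-ATAC on 50000 cells. All cells grew in RPMI-1640 with fetal bovine serum, and the untreated cells of the same line were the reference at both times, which the lists name DMSO. The lists give coordinates on hg19 and no value for a library, so depth and the spread between libraries are unknown, the members just inside and just outside the limits of the call cannot be given, and the identity of the lines could not be checked against marker genes. All intervals below cover counting error over regions.

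CDK9 is the kinase of P-TEFb, which phosphorylates RNA polymerase II and releases it from the pause downstream of a promoter. Accessible regions away from promoters are mostly enhancers, where lineage factors bind, or insulators, where CTCF binds and helps to shape chromatin loops. In B cells the enhancer factors include the ETS proteins PU.1 and SpiB, the interferon regulatory factors IRF4 and IRF8, which join PU.1 or SpiB on composite sites, the octamer factors, and RUNX, MEF2 and E2A proteins.

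In VAL, 1786 regions were decreased at 3 h and 9260 at 8 h, which is 6.77% and 35.1% of all listed regions, and 35% of all listed regions stood in at least 1 OCI-LY3 list. Of the 1786 regions, 1171 were decreased at 8 h too. Members made up 45.5% of the regions decreased at 3 h. The 1171 regions comprised the 813 members, 356 regions that were also decreased in OCI-LY3 at 3 or 8 h, and 2 that were increased there. The 3 h and 8 h comparisons share their untreated libraries, so the overlap in time is not independent evidence of a lasting loss. Members were compared below with 3 other groups of regions: 7118 VAL-only late closed regions, decreased at 8 h but not listed as decreased at 3 h; the 356 shared closed regions; and 1954 VAL-only opened regions, increased at 3 and 8 h. Members and the 3 groups rest on the same VAL libraries.

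Among 16 motifs of B-cell, stress, promoter and insulator factors, CTCF alone differed from the shared closed regions in the main test, on 200 bp windows. Examples are therefore shown first. These are the 6 members with the match nearest to the region's midpoint, at most 5 bp away, given as 60 bp of the plus strand of GRCh37, 5′ to 3′, with the match in capitals. The match was CCA, any 2 bases, AG, any 2 bases and GGC, on either strand. CTCF 3 and CTCF 6 hold it on the plus strand and the others on the minus strand.
CTCF 1, chr12:74806578-74806637: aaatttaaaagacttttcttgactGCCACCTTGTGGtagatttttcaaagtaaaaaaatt
CTCF 2, chr18:61662190-61662249: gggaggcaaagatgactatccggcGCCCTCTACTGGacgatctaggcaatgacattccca
CTCF 3, chr3:193179609-193179668: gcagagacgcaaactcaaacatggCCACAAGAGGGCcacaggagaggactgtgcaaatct
CTCF 4, chr12:127359119-127359178: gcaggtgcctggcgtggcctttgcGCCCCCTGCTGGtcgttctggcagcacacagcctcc
CTCF 5, chr9:14846928-14846987: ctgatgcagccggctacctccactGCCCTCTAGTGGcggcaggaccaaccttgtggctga
CTCF 6, chr3:79135745-79135804: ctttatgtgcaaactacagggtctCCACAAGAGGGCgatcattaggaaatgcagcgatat
CTCF 2, 3, 5 and 6 lie in introns of SERPINB8, ATP13A4, FREM1 and ROBO1, and CTCF 1 and CTCF 4 between genes. Over the matches nearest to the midpoint, the most frequent spellings were CCACTAGATGGC, CCAGCAGAGGGC and CCAGCAGGGGGC, each in 5 members.

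Lymphoid letters stood in other members. The next window, of 200 bp around the midpoint, is from the member whose match to PU.1/SpiB (GAGGAAGT) lay nearest to the midpoint. Capitals mark that match and the ETS-IRF composite (GGAA and GAAA with any 2 bases between) that overlaps it.
PU.1/SpiB, chr7:122184640-122184839: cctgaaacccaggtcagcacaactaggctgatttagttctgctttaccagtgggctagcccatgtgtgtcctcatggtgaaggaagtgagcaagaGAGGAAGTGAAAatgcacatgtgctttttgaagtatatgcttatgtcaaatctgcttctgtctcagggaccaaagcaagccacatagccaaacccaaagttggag
It lies in an intron of CADPS2.

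A CTCF match stood within the central 200 bp of 63 of 813 members, or 7.75% (95% Wilson interval 6.10 to 9.79%). It stood in 2.53% of the shared closed regions, 2.71% of the opened regions, 5.45% of the late closed regions and 3.78% of all listed regions. The odds of a match were 3.10 times those of the shared closed regions (95% interval 1.55 to 6.19, adjusted p = 0.00223 by a two-sided Fisher's exact test, with 48 motif tests in the adjustment), and the members' share was the higher one on 14 of 19 autosomes. They were 3.01 times those of the opened regions (2.07 to 4.37, adjusted p = 1.4e-07, 16 of 20 autosomes), and 11.02 times within classes of GC content. Against the late closed regions the ratio was 1.47 (1.11 to 1.93, adjusted p = 0.0411, 15 of 20 autosomes). This last call did not hold up. Within classes of GC content the ratio was 1.42 (Mantel-Haenszel, adjusted p = 0.128), within classes of width 1.31 (adjusted p = 0.223) and away from promoters 1.30 (Fisher's exact test, adjusted p = 0.395). Leaving out single autosomes in turn lost the call for 11 of 22, with the ratio between 1.42 and 1.55. All p-values here treat regions as the units, and neighbouring regions on a chromosome are not replicates of the treatment.

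**Figure D1:**
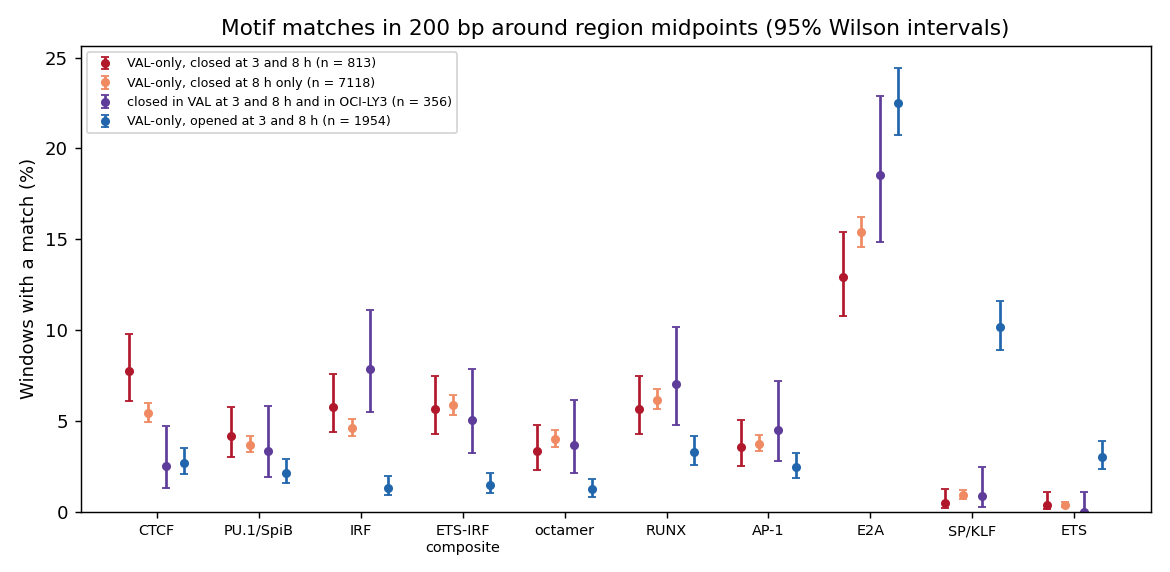
Share of regions in percent with an exact match to each motif in the 200 bp around the midpoint, for members and 3 comparison groups; points are shares and bars 95% Wilson intervals. For CTCF the members' 7.75% lies above the 2.53% and 2.71% of the shared closed and opened regions, while SP/KLF and E2A matches are most frequent in the opened regions.

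The CTCF matches were concentrated near the midpoints of the members. Here a region was counted by the centre of its match, which takes in a few matches that overhang the 200 bp window. Of 813 members, 66 had a match centred within 100 bp of the midpoint and 10 had one centred at 400 to 500 bp. In the late closed regions the counts were 414 and 63 of 7118. In the shared closed regions the counts were 9 and 5 of 356, and in the opened regions 54 and 25 of 1954. For PU.1/SpiB, 35 members had a match at the centre and 12 at the flank, and for ETS-IRF 47 and 19. Octamer counts in members were 29 and 19, RUNX 47 and 29, and MEF2 12 and 24, the last higher at the flank. For IRF (GAAA and again GAAA with any 2 bases between) they were 47 and 48, and for E2A (CAGGTG) 111 and 107. The IRF and E2A counts were near-equal at the centre and the flank. The central excess of PU.1/SpiB and ETS-IRF was also seen in the other closed groups. PU.1/SpiB counts were 268 and 106 in late closed, 13 and 3 in shared closed and 44 and 30 in opened regions. ETS-IRF counts were 426 and 199, 20 and 3, and 35 and 40 in that order.

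**Figure D2:**
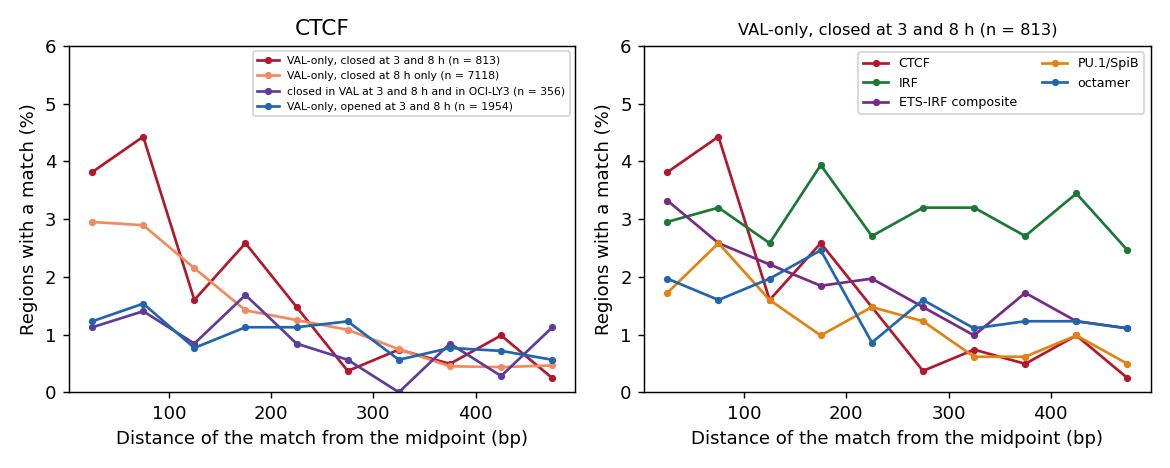
Share of regions in percent with a match in each 50 bp class of distance from the midpoint; left, CTCF in 4 groups of regions, right, 5 motifs in the members. CTCF matches of members reach 4.43% at 50 to 100 bp and 0.246% at 450 to 500 bp, while IRF matches stay between 2.46% and 3.94%.

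The 63 members with a CTCF match differed in setting from the other 750 as a description only. Of the 63, 36 had their midpoint in a protein-coding gene (57.1%, against 50.1%), and 9 lay within 1000 bp of a TSS (14.3%, against 8.67%). Another region decreased in VAL at 8 h lay within 10 kb of 9 (14.3%, against 26.0%). A region decreased in OCI-LY3 lay within 10 kb of 2 (3.2%, against 6.5%). They lay on 18 chromosomes. A match to PU.1/SpiB, IRF, the ETS-IRF composite or the octamer (ATGCAAAT) stood beside the CTCF match in 2 members.

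Against the shared closed regions, CTCF was the 1 motif of 16 that passed the main test. In some other settings, listed in the closing section, motifs less frequent in members passed too. On leaving out single autosomes, none less frequent passed in 17 of 22. E2A matches stood in 12.9% of members and 18.5% of the shared closed regions, which did not pass (odds ratio 0.650, 0.465 to 0.910, adjusted p = 0.0554 by Fisher's exact test). None of the lymphoid motifs passed, and the intervals were wide: IRF matches stood in 5.78% and 7.87% (odds ratio 0.714, 0.441 to 1.16), PU.1/SpiB matches in 4.18% and 3.37% (1.22, 0.631 to 2.36), and ETS-IRF matches in 5.66% and 5.06% (1.11, 0.637 to 1.93). Over all listed regions IRF matches stood in 3.73%, PU.1/SpiB in 2.81% and ETS-IRF in 3.41%.

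Against the opened regions, 10 motifs passed the test, of which 2 still passed within classes of GC content. IRF matches stood in 1.33% of opened regions (4.51 times the odds, adjusted p = 1.36e-08 by Fisher's exact test), ETS-IRF matches in 1.48% (3.96, adjusted p = 8.97e-08), octamer matches in 1.23% against 3.32% (2.75, adjusted p = 0.00289), PU.1/SpiB in 2.15% (1.99, adjusted p = 0.0228) and RUNX (TGTGGTT) in 3.28% against 5.66% (1.78, adjusted p = 0.0228). Matches to 4 motifs were less frequent in members. SP/KLF matches (GGGGCGGGG) stood in 4 members, 0.492%, and 10.2% of opened regions (0.0489, adjusted p = 2.11e-24). ETS matches of the promoter type (CCGGAAGT) stood in 0.369% and 3.02% (0.138, adjusted p = 1.27e-05), E2A in 12.9% and 22.5% (0.512, adjusted p = 4.31e-08), and CRE (TGACGTCA) in 0 of 813, where a limit of 3 counts allows a share of up to 0.369%, and 0.819% (adjusted p = 0.0228). Leaving out single autosomes in turn, the call was kept in 17 of 22 for PU.1/SpiB and in 18 of 22 each for RUNX and CRE, and in all 22 for the other 7 motifs. Within 5 classes of GC content the ETS-IRF composite (2.82, adjusted p = 0.0185) and CTCF still passed. Of the other 8, the ratio was 1.01 for PU.1/SpiB, 1.17 for the octamer, 1.51 for IRF and 0.797 for E2A there, and 0.635 for SP/KLF and 0.197 for ETS, with RUNX at 1.004 and CRE at 0. Median GC content was 39.6% in members and 57.9% in opened regions, and its part in these differences was not tested further. AP-1, NF-kB, EBF1, MEF2, STAT and forkhead matches passed in none of the 3 comparisons.

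At least 1 of the 16 motifs stood in the central 200 bp of 346 members (42.6%), and none in 467. PU.1/SpiB, IRF or ETS-IRF letters stood in 111 (13.7%). Letters of related motifs can overlap: 7 windows held both a PU.1/SpiB and an ETS-IRF match and 8 both an IRF and an ETS-IRF match. A match is a description of the letters and not evidence of a bound factor.

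The members were low in GC and mostly far from promoters. Their width ran from 365 to 2851 bp with a median of 1291 bp. Median GC content was 39.6% (quartiles 36.3 and 43.5%), against 40.7% in late closed, 41.3% in shared closed, 57.9% in opened and 47.5% in all listed regions. The median density of CpG was 7.18 per kb in members and 36.4 per kb in opened regions. From its midpoint to the nearest protein-coding transcription start site (TSS) the median member had 51383 bp to go, and 270 members (33.2%) had over 100 kb.

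**Figure D3:**
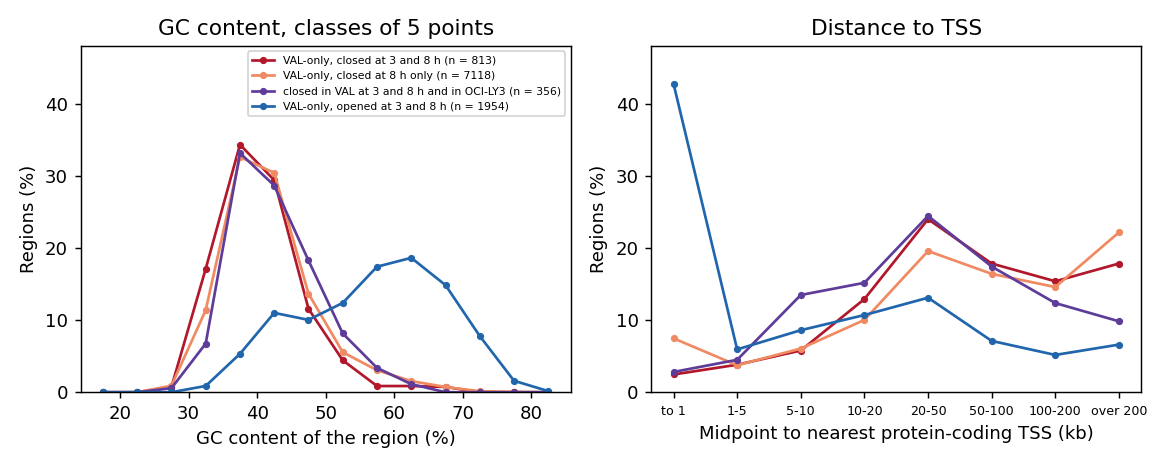
Left, share of regions in percent by GC content in classes of 5 points; right, share by distance in kb from the midpoint to the nearest protein-coding TSS. The 3 closed groups peak near 40% GC, members with a median of 39.6%, and the opened regions have a median of 57.9%, with 42.8% of them within 1 kb of such a TSS.

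Few members were promoters. Within 1000 bp of an annotated TSS lay 74 members, 9.10% (7.31 to 11.3%), against 13.7% of late closed, 12.1% of shared closed, 50.2% of opened and 29.1% of all listed regions. The odds were 0.636 times those of the late closed regions (0.497 to 0.815, adjusted p = 0.000385 by Fisher's exact test with 8 location tests in the adjustment, 17 of 20 autosomes), but 0.761 with adjusted p = 0.0936 within classes of GC content. The ratio was 0.1001 against opened regions (0.0777 to 0.129, adjusted p = 1.35e-103, 20 of 20 autosomes) and 0.637 with adjusted p = 0.0443 within those classes. Against the shared closed regions it was 0.726 (0.488 to 1.08, adjusted p = 0.184).

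The midpoints of 412 members (50.7%) lay in a protein-coding gene, 381 of them in introns, 8 in exons outside the untranslated stretches and 23 in untranslated stretches. The share was 48.1% in late closed regions (odds ratio 1.11, 0.959 to 1.28, adjusted p = 0.195 by Fisher's exact test) and 45.8% in shared closed regions (1.22, 0.948 to 1.56, adjusted p = 0.184). It was 65.4% in opened regions (0.544, 0.461 to 0.642, adjusted p = 3.02e-12), lower in members on 11 of 20 autosomes, and the ratio was 0.934 with adjusted p = 0.712 within classes of GC content. Over the 412 members in genes the median length of the gene was 209 kb, against 205 kb for late closed, 157 kb for shared closed and 43.7 kb for opened regions.

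Absence from the OCI-LY3 lists did not mean that OCI-LY3 was without decreased regions nearby. Within 10 kb of 51 members (6.27%) lay a region decreased in OCI-LY3, and within 10 kb of 14 members (1.72%) an increased one. The first share was 6.39% in late closed regions and 2.25% in opened regions. In the shared closed regions, themselves decreased in OCI-LY3, it was 15.7%. In VAL itself 204 members (25.1%) had another region decreased at 8 h within 10 kb, and 9 (1.11%) an increased one. Over all listed regions these shares were 4.56% and 9.77% for OCI-LY3 and 10.7% and 18.1% for VAL, and in the late closed regions the VAL shares were 22.9% and 1.14%. All of these shares come from the lists that chose the members and are a description, with no test.

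Members were spread unevenly over the chromosomes. Chromosomes 2 to 6 held 411 members, 50.6%, and 31.2% of all listed regions. One by one they held 103, 73, 94, 61 and 80 of the 813 members. Of the 7118 late closed regions they held 867, 670, 776, 512 and 606, so a high share there was not particular to the members. Chromosomes 16, 17, 19 and 22 held 2 members, 0.246%, and 17.1% of all listed regions. Both groups of chromosomes were chosen after their values were seen. The low chromosomes were also low in the other regions decreased in VAL at 8 h: chromosome 19 had 8 decreased and 1327 increased regions at that time, and chromosome 4 had 1013 and 190.

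**Figure D4:**
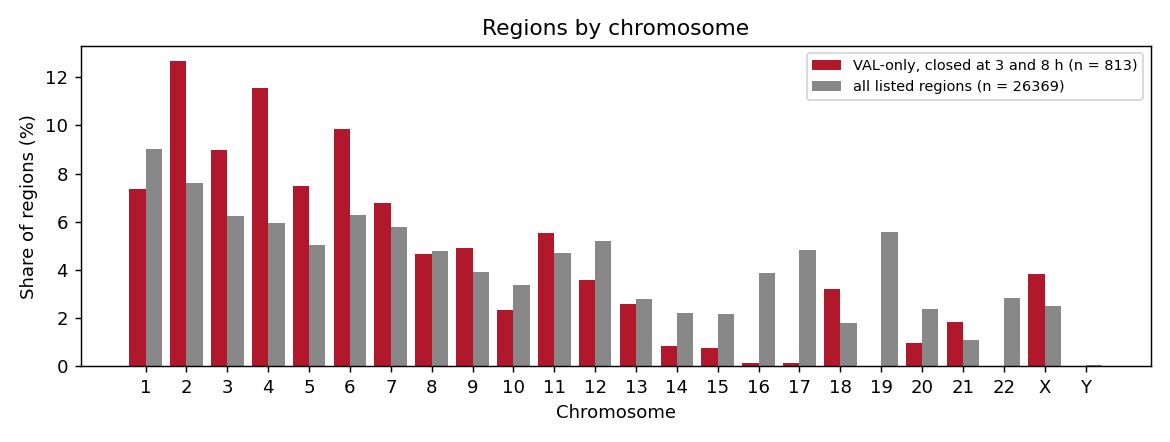
Share of regions in percent on each chromosome for the 813 members and for all 26369 listed regions. Members exceed the listed regions on chromosomes 2 to 6 and are at or near 0 on chromosomes 16, 17, 19 and 22.

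Most members stood alone. Joining members at most 50 kb apart gave 747 loci, of which 700 held 1 member, 38 held 2 and 9 held 3 or more. The locus with most members, 10, was BCL2, the anti-apoptotic gene whose product holds the mitochondrial cell death proteins in check. The next was at ZNF595, a zinc finger gene near the end of the short arm of chromosome 4, with 5 members in chr4:27682-67229, followed by ARHGAP18 with 4. ZMAT3, TMPRSS15, NIPSNAP3B, a locus next to ZNF184 and one between OR4D9 and OSBP had 3 each. So did a locus on chromosome 2 whose nearest protein-coding TSS, that of SLC39A10, was 312782 to 338175 bp away. DUSP10, a MAP kinase phosphatase, led the loci of 2 by span.

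All 10 BCL2 members lay in intron 2 of the gene, which runs on the minus strand of chromosome 18. They covered chr18:60842252-60941382, a span of 99131 bp that began 45.6 kb and ended 145 kb downstream of the TSS of the canonical transcript at 60987002. From the start of any annotated BCL2 transcript their midpoints were 13764 to 74868 bp away. The midpoints were 4878 to 18337 bp apart with a median of 11493 bp, and the widths ran from 465 to 1431 bp. The intron of 189 kb held 17 listed regions. Of these, 13 were decreased in VAL at 3 h and 15 at 8 h, and none of the 17 was in a list of increased regions in either line. The 2 regions decreased at 3 h and not at 8 h, at 11.8 and 19.8 kb, were nearer to the canonical TSS than any member. In OCI-LY3 the intron held 1 listed region, at 141.5 kb, decreased at 8 h and in VAL at both times.

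**Figure D5:**
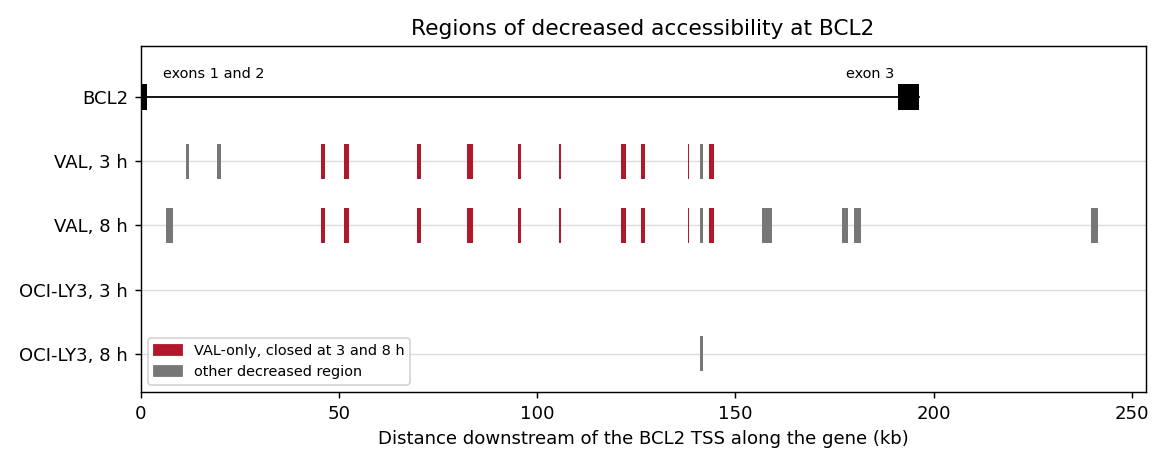
Regions of decreased accessibility around BCL2 by line and time, drawn to scale in kb downstream of the canonical TSS; black boxes are exons of the canonical transcript, with exons 1 and 2 drawn as 1 block. The 10 members (red) lie between 45.6 and 145 kb in both VAL rows, and OCI-LY3 has 1 region at 8 h.

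The BCL2 members carried different letters. Of the 10, 4 held a MEF2 (CTAAAAATA), IRF, PU.1/SpiB or ETS-IRF match in the central 200 bp, 4 held an E2A match alone, 2 held none of the 16 motifs, and none held a CTCF match. The 4 windows are shown on the plus strand with the matches in capitals.
BCL2 MEF2, chr18:60860215-60860414: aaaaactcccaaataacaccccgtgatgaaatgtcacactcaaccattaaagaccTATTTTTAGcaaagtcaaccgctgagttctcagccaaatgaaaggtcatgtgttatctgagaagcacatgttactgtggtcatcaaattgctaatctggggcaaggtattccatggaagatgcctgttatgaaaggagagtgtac
BCL2 IRF, chr18:60865093-60865292: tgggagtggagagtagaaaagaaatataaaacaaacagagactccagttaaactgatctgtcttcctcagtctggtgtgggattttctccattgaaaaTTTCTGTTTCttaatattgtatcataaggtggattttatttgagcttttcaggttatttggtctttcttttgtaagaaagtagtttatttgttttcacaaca
BCL2 PU.1/SpiB, chr18:60903870-60904069: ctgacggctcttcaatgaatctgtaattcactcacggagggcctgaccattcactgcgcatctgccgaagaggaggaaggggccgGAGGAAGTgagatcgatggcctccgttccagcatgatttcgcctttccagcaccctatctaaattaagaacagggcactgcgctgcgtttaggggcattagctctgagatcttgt
BCL2 ETS-IRF and RUNX, chr18:60934945-60935144: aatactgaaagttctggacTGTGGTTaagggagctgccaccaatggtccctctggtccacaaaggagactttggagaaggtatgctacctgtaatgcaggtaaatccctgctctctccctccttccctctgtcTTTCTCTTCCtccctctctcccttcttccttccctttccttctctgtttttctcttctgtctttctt
These letters each occur in 1.82%, 3.73%, 2.81% and 3.41% of all listed windows, in the order MEF2, IRF, PU.1/SpiB and ETS-IRF, and RUNX letters in 4.85% and E2A letters in 21.2%.

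Of 32 B-cell transcription factor genes, 6 had a member in the gene or as the closest gene within 50 kb: IKZF1, IRF4, BACH2, MEF2C, FOXP1 and BCL11A. That is 18.8%, against 2.59% of all 20136 protein-coding genes (521), while late closed regions touched 13 of the 32 and 2889 of the 20136, opened regions 7 and 1706, and shared closed regions 3 and 287. Long genes have more room for a region, so no test was made. None of 34 B-cell receptor and NF-kB signalling genes and none of 14 migration genes had a member, where late closed regions touched 9 and 5 and opened regions 5 and 4. With so few genes in a list, a count of 0 lies near the share over all genes. Of 24 survival, cell cycle and CDK9 genes BCL2 alone had one.

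Distances of the next members are from the TSS of the gene's canonical transcript. BACH2, a repressor that holds back plasma cell differentiation, had 2 intronic members at 131 and 213 kb, the first with octamer and RUNX letters; the nearest start of any BACH2 transcript was 40378 and 122621 bp away. Its gene held 16 listed regions, 10 of them decreased in VAL at 3 h, 5 at 8 h and none increased in VAL. In OCI-LY3, 3 regions of BACH2 were decreased at 3 h and 1 at 8 h, and 1 and 2 were increased. FOXP1, a forkhead factor of B-cell development, had 2 intronic members at 466 and 496 kb, which lay 12420 and 22764 bp from the start of another FOXP1 transcript. The gene held 7 regions decreased in VAL at 8 h. OCI-LY3 had 1 decreased region there at each time and 2 increased at 8 h. MEF2C, a factor activated downstream of the B-cell receptor, had 1 member at 32.8 kb among 8 regions decreased at 8 h, and in OCI-LY3 2 of its regions were increased at 3 h and 1 at 8 h. BCL11A, a zinc finger repressor required for B-cell development, had 2 members at 61.0 and 75.6 kb, and 2 other regions of that gene were increased in VAL at each time, with 1 decreased in OCI-LY3 at 3 h. IKZF1, which encodes the lymphoid factor Ikaros, had 1 member 92.8 kb into the gene, which held 1 region decreased in OCI-LY3 at 8 h. The IRF4 member lay at 43.1 kb, past the end of the gene, and held RUNX letters.

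Promoters of protein-coding genes accounted for 26 members (3.20%) and 27 genes, against 3.09% of shared closed, 7.94% of late closed and 22.6% of all listed regions. The odds were 0.39 times those of the late closed regions (Fisher's exact test, adjusted p = 3.7e-07) and 1.01 times those of the shared closed regions. In 19 the region covered the TSS, and 9 of the 26 had a GC content over 60%: those of DDAH1, which degrades an inhibitor of nitric oxide synthesis, the methionine sulfoxide reductase MSRB3, the activin receptor ACVR1C, ADAM23, the ADP receptor P2RY1, the translation factor EIF5A2, the kinase TNIK, carboxypeptidase CPE and FAM86B2. The others were HFM1, a helicase of meiosis, SYNPO2, the cathepsins CTSO and CTSC, CCNB3, the proton-sensing receptor GPR65, ARHGAP18, AKAP7, ADGRB3, KIAA1217, ZEB2, KCTD16, PPP1R17, TES, FAM177B and OR2A14, and TLR4, the receptor of bacterial lipopolysaccharide, whose TSS is shared with the readthrough gene ENSG00000285082. The TLR4 region held PU.1/SpiB and ETS-IRF letters and the CTSC region PU.1/SpiB and IRF letters, while those of ARHGAP18, FAM177B and OR2A14 held CTCF letters.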

How the data were processed

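The 24 ATAC-seq libraries were mapped to hg19 by the authors (bowtie2), who discarded duplicate, mitochondrial and non-unique reads, called peaks per library (MACS2), merged the peaks and counted reads in them (bedtools) and compared 3 h and 8 h with 0 h per line with DESeq2; the study's texts give different limits for the adjusted p. The authors deposited 8 coordinate lists, without values for single libraries, so neither depth nor the effect of the 2 library protocols could be examined.

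Lists were matched by equal coordinates with Python 3.11.15, numpy 2.4.6 and pandas 2.3.3. Sequence was read from GRCh37 with pysam 0.24.0, and genes came from GENCODE v44 lifted to GRCh37. The 16 motifs were searched as exact letters on both strands. Shares were tested with Fisher's exact test, two-sided (scipy 1.17.1), with 0.5 added to each cell of the odds ratios, 95% Wald intervals, and Benjamini-Hochberg adjustment over 8 location and 48 motif tests; the 2 location tests on OCI-LY3 neighbours are not reported, since the lists behind them chose the members. Mantel-Haenszel ratios used 5 classes of GC content or width. The motif search, the odds ratios and Fisher's exact test were first tried on made-up sequences and counts. The matching of lists, the distances to genes and the loci were not. Named genes were those with a TSS within 1000 bp of a member, those of 4 gene lists, and those at the 10 loci with most members, plus the 5 widest members and the genes around the sequences printed, which are those with a match nearest the midpoint. Members, gene lists and motifs were chosen with earlier results of these data known. Sequences from 1 chromosome and some other items are not reported here.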

Additional observations from a re-analysis of the deposited data

How the results depend on the processing

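Counting a region as listed in OCI-LY3 on any overlap gave the same 813 members. The authors had merged the peaks before counting, so listed regions cannot overlap in part. That outcome was therefore fixed in advance and is no check of the members. Within classes of GC content the odds ratio for promoters against late closed regions was 0.761 and that for gene bodies against opened regions 0.934, neither past the threshold. The odds ratio for an OCI-LY3 decreased neighbour against late closed regions, 0.988 and given without a test, turned to 1.007 within classes of GC content and to 1.049 within 50 kb, and ran from 0.898 to 1.041 on leaving out each autosome. Counting promoters of protein-coding genes alone turned the ratio against shared closed regions to 1.011. The number of motifs more frequent than in late closed regions fell from 1 to 0 after merging regions within 10 kb, within classes of GC content or width, in 400 bp windows, over whole regions and away from promoters, and was 0 to 1 on leaving out each autosome; the number less frequent rose from 0 to 1 over whole regions. The number less frequent than in shared closed regions rose from 0 to 1 within classes of width, over whole regions and away from promoters, to 2 in 400 bp windows, and was 0 to 1 on leaving out each autosome. Against opened regions the motifs more frequent numbered 6, 2 within classes of GC content and 3 away from promoters, and those less frequent 4, 0 and 2. The cause of these changes was not tested. The restriction to regions over 1000 bp from a TSS and a stricter spelling of CTCF, which gave 1.589 with adjusted p = 0.0468 by Fisher's exact test against late closed regions, were chosen after seeing the data. No paired analysis was possible because the lists hold no values for single libraries, and for the same reason no library could be left out. Depth is unknown, so regions missing from an OCI-LY3 list may have been changed below the limit of the call.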

Other observations

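The 5 widest members ran from 2723 to 2851 bp. The widest lay in RIMS2, which encodes a scaffold protein of synaptic vesicle release, 53892 bp from the nearest protein-coding TSS. The others lay between genes, nearest to OTOL1 (13195 bp), the histone gene H4C8 (27078 bp), TRIM36 (72244 bp) and HNRNPA3 (47013 bp). Their GC content ran from 32.3% to 41.3%. Besides BCL2, the gene with most members was TMPRSS15 with 5. In TMPRSS15, which encodes the intestinal enzyme enteropeptidase, all 8 listed regions were decreased in VAL at 8 h, and 1 of them was increased in OCI-LY3 at 3 h.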
